A study of Homo sapiens with 12 samples.

Results

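The genes of 6 ERBB ligands (EGF, TGFA, EREG, HBEGF, BTC and NRG1) and of the 2 main ligand sheddases (ADAM10 and ADAM17) were examined in 12 expression arrays of HCC827 and related cells. HCC827 is an established human line from a lung adenocarcinoma with a mutation that activates EGFR. Members were the probe sets with a single symbol in the platform annotation that, brought to its current RefSeq form, was 1 of these 8. All 8 genes were found, with 21 probe sets of 22215 tested, and 8 of 11963 genes named in this way. ERC4 is a single line, labelled resistant to the EGFR kinase inhibitor erlotinib, and is set against HCC827, labelled parental. Esh9-1 is HCC827 that received 1 lentiviral shRNA against EGFR, and is set against HCC827NT, which received a non-target shRNA by the same kind of virus. Each group has 3 arrays. All cells grew in RPMI with 5% FBS and antibiotics, and Esh9-1 and HCC827NT also with 5 ug/ml puromycin, so the transduction and the selection are shared by both groups of that comparison. A resistance entry reads the same for the 12 samples, parental cells included, so the titles gave the groups. There is 1 resistant line and 1 EGFR shRNA, so what belongs to this line, or to this shRNA, cannot be told apart from resistance or EGFR loss.

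ERBB ligands are made as membrane-bound precursors. A cut close to the membrane releases the soluble growth factor, and in mouse cells ADAM17 is the main sheddase of TGFA, HBEGF and EREG, while ADAM10 is that of EGF and BTC. EGF and TGFA bind EGFR, HBEGF, BTC and EREG bind both EGFR and ERBB4, and NRG1 binds ERBB3 and ERBB4. In lung epithelium these ligands act on the cells that make them and on their neighbours, and ligand supply is one known route by which EGFR-mutant lung cancer cells keep ERBB signalling under EGFR inhibitors. Transcript arrays measure neither the precursor protein nor its shedding.

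Promoter windows are shown for the 5 genes with a change called in at least 1 comparison on probe sets above the median signal and for which a window could be shown, since these are the genes whose transcript levels the results turn on. Each is the 250 bases before the gene start on GRCh38.p14, from RefSeq, 5′ to 3′. Capitals mark matches, on either strand, to the AP-1 letters TGANTCA, the TEAD letters GGAATG, the GC box GGGCGG or the TATA box TATAAA.
EREG, chr4:74364895-74365144, plus strand: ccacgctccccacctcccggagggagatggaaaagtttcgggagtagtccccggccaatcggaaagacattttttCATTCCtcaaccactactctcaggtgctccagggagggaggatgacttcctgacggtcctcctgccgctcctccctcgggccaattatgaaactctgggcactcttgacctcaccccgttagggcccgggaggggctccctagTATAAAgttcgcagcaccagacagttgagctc
HBEGF, chr5:140346604-140346853, minus strand: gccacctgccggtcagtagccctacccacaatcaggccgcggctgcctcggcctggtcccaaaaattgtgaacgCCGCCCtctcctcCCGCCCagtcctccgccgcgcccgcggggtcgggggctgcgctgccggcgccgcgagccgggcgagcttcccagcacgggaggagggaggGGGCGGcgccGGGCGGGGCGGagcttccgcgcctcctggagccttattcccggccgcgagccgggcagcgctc
TGFA, chr2:70553827-70554076, minus strand: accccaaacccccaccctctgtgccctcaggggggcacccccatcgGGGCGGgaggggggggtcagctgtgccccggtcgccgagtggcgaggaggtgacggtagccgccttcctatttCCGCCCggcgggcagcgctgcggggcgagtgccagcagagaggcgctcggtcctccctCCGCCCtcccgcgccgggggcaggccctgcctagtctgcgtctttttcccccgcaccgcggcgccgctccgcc
ADAM10, chr15:58749708-58749957, minus strand: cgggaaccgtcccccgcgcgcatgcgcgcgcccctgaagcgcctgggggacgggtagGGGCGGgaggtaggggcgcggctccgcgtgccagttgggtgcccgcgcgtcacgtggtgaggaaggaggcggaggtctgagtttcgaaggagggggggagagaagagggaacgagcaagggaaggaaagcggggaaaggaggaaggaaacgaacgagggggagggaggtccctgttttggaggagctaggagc
ADAM17, chr2:9555831-9556080, minus strand: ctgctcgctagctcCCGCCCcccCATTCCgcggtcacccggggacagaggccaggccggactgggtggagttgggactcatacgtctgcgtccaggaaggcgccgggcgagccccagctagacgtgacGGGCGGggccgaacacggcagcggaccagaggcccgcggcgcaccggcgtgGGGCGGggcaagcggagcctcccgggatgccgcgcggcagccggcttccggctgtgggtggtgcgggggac
The EREG window has a TATA box 32 bases before the start, present in 10.7% of 35116 windows of this length, and a match to the TEAD letters 175 bases before it (11.9% of windows). HBEGF has 5 GC boxes, of which the nearest pair overlap by 1 base, TGFA and ADAM17 have 3 each, and ADAM10 has 1; 42.6% of windows hold at least 1. ADAM17 also has 1 match to the TEAD letters. None of the 5 windows holds the AP-1 letters, which 6.57% of windows do. A match is a description of the letters and not a binding site.

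Levels below are log2(value + 1) of the deposited intensities, and differences are log2 fold changes with limma standard errors. A probe set was called at a limma adjusted p under 0.05 over all 22215 probe sets. It is termed dim where both group means lay below the median level of that comparison's 6 arrays, 5.72 in the ERC4 and HCC827 arrays and 7.17 in the Esh9-1 and HCC827NT arrays. In ERC4 and HCC827, 11 of the 21 probe sets were not dim, and 9 of these were called, against 61.7% of all such probe sets. In Esh9-1 and HCC827NT, 10 were not dim and all 10 were called, against 69.6% of such probe sets. Nothing is read from these counts, since a probe set can pass through the group in which it is high. The 2 sets of 6 arrays have unlike medians, 49.98 to 52.97 and 141.2 to 143.4 in intensity, as sets normalized apart would, so no level is compared between them.

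In ERC4 against HCC827, 11 of the 21 probe sets were called, 6 higher and 5 lower, or 52.4%, where 48.5% of all probe sets were called (23.6% higher and 24.9% lower). That share is near the background. ADAM10 rose in all 3 of its probe sets, TGFA fell in all 3 of its own, and NRG1 rose 3.20-fold in its brightest probe set. In Esh9-1 against HCC827NT, 16 of the 21 were called, 10 higher and 6 lower, or 76.2%, against 50.3% of all probe sets (24.5% higher and 25.9% lower). With 1 probe set per gene, 6 of the 8 genes were called in Esh9-1, against 52.3% of all genes. The members were chosen with earlier results of these data known, so no excess is read from the Esh9-1 share. HBEGF rose 3.98-fold, NRG1 3.72-fold and EREG 2.08-fold there by their brightest probe sets, and ADAM17 fell in all 3 of its own. TGFA was called lower there in 2 of 3 probe sets, all of them dim, and not in its brightest. The median log2 fold change of the 21 probe sets was 0.08 in the first comparison and 0.14 in the second, against medians of -0.06 and -0.03 over all probe sets.

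**Figure D1:**
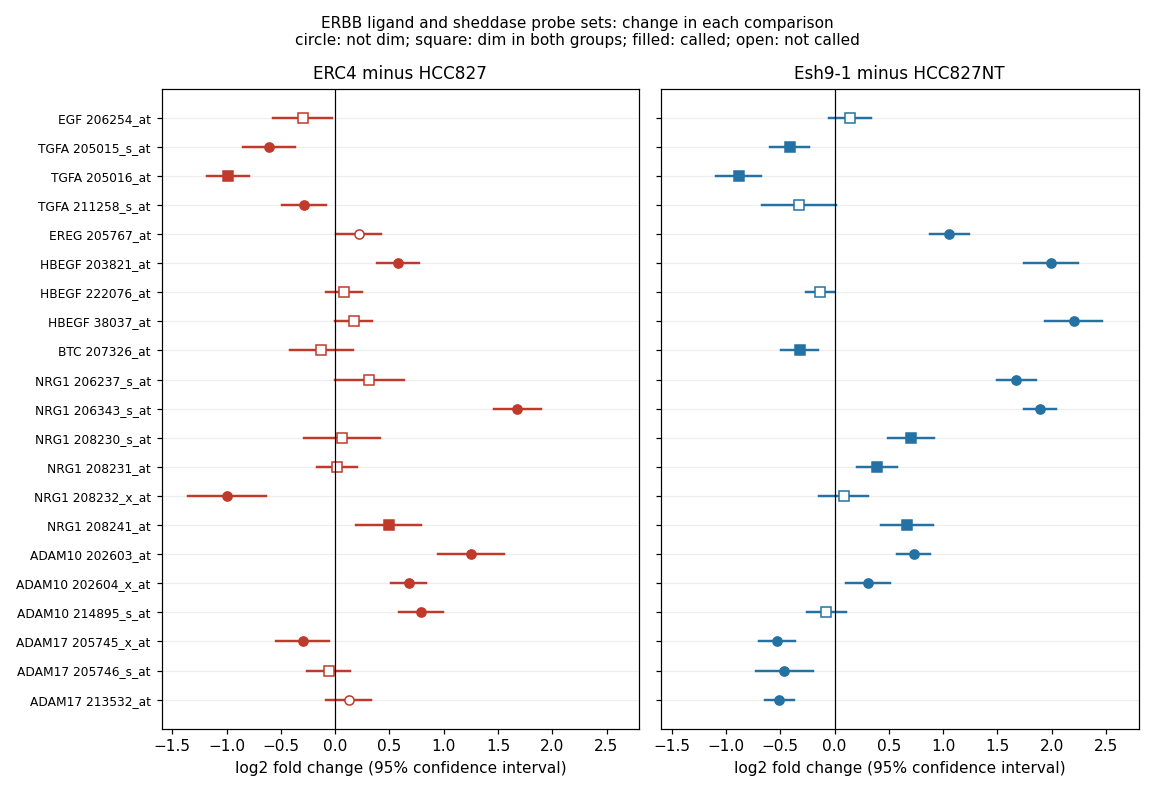
Log2 fold change of each of the 21 ligand and sheddase probe sets, with its 95% confidence interval, in ERC4 minus HCC827 (left) and Esh9-1 minus HCC827NT (right). Filled symbols were called, open ones were not, and squares are dim in both groups. The HBEGF probe sets 203821_at and 38037_at lie near 2 in the right panel, at 1.99 and 2.20, and at 0.58 and 0.17 in the left.

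Within groups the lowest correlation between arrays, taken over probe sets, was 0.9922, and no pair of arrays was identical. The arrays measure RNA pooled over a culture, so fewer cells carrying a transcript and less of it per cell cannot be told apart. All 8 epithelial markers fell in both comparisons. They summed to log2 levels of 71.6 to 72.5 in ERC4 against 85.8 to 86.5 in HCC827, and of 74.4 to 75.7 in Esh9-1 against 100 to 100.1 in HCC827NT. Of these markers only CDH1 was below its set's median, in Esh9-1. Of 7 fibroblast genes, 6 were below the median in ERC4 and 5 in HCC827, with sums of 36.2 to 36.5 in ERC4 and 37.9 to 38.3 in HCC827. The same list had 6 below in both Esh9-1 and HCC827NT, with sums of 47.0 to 47.3 in Esh9-1 and 45.2 to 45.8 in HCC827NT. Of 5 endothelial genes, 3 were below in ERC4 and 4 in HCC827 (sums of 25.5 to 25.9 in ERC4 and 26.5 to 27.7 in HCC827), and 4 were below in Esh9-1 and 5 in HCC827NT (31.3 to 31.4 in Esh9-1 and 29.6 to 29.7 in HCC827NT). Of 7 leukocyte genes, 5 were below in ERC4 and 4 in HCC827 (37.8 to 39.1 in ERC4 and 41.4 to 41.7 in HCC827), and 4 were below in both Esh9-1 and HCC827NT (45.8 to 46.3 in Esh9-1 and 49.3 to 49.5 in HCC827NT). These sums can rest on single genes. In Esh9-1, LUM was the only fibroblast gene called higher (2.56) and ENG the only endothelial one (2.15), with 1 gene called lower in each list. LCP1 fell the most among the leukocyte genes there (-3.14), of which 2 were called lower and 1 higher. Hybridisation controls averaged 9.48 in ERC4 and 11.04 in HCC827, and 11.92 in Esh9-1 and 11.37 in HCC827NT. The 3' minus 5' log2 signal of the ACTB controls was 1.07 ± 0.15 in Esh9-1 and 0.20 ± 0.03 in HCC827NT (SD, n = 3), and 0.19 ± 0.04 in ERC4 and 0.22 ± 0.05 in HCC827. That of the GAPDH controls was 0.30 ± 0.08 in Esh9-1 and -0.05 ± 0.02 in HCC827NT, and -0.08 ± 0.03 in ERC4 and 0.06 ± 0.03 in HCC827. The part of these differences in the results that follow was not tested.

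EGF was dim in all 4 groups. Its single probe set 206254_at averaged 3.73 ± 0.07 in ERC4 and 4.03 ± 0.25 in HCC827 (SD, n = 3), a log2 fold change of -0.30 that was not called (95% interval -0.57 to -0.03, limma adjusted p = 0.065). With all arrays kept it was called lower in the model of all 12 arrays (limma adjusted p = 0.035), with trend and robust settings (limma adjusted p = 0.038) and with array weights (-0.35, limma adjusted p = 0.028). It was also called lower without HCC827 replicate 1, the lowest array of HCC827 (-0.42, limma adjusted p = 0.01). It was not called after median centring (-0.24, limma adjusted p = 0.14) or after quantile normalization (-0.20, limma adjusted p = 0.23). In Esh9-1 it averaged 5.21 ± 0.15 against 5.07 ± 0.07 in HCC827NT, and the difference of 0.14 was not called either (interval -0.05 to 0.33, limma adjusted p = 0.2).

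TGFA is the other ligand that binds EGFR alone. Its 3 probe sets were called lower in ERC4, and 2 of them in Esh9-1, where all 3 were dim. The probe set 205016_at measured 4.26, 4.27 and 4.45 in ERC4, against 5.39, 5.35 and 5.21 in HCC827. In ERC4 the level fell by 0.99 ± 0.09 (SE), a 1.98-fold decrease (limma adjusted p = 1.8e-05). In Esh9-1 it measured 5.06, 4.89 and 4.71, against 5.75, 5.86 and 5.71 in HCC827NT. In Esh9-1 it fell by 0.88 ± 0.09, or 1.85-fold (limma adjusted p = 4.3e-05). The arrays of the compared groups did not overlap in either comparison, although the probe set was dim in both. The same direction was seen with 205015_s_at, which fell by 0.61 ± 0.11 in ERC4 (5.57 in ERC4 and 6.18 in HCC827, limma adjusted p = 0.0012). It fell by 0.41 ± 0.08 in Esh9-1, where it was dim (6.03 in Esh9-1 and 6.44 in HCC827NT, limma adjusted p = 0.0021). Both 205015_s_at and 205016_at were designed from the same sequence record, and 211258_s_at from another.

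The brightest TGFA probe set, 211258_s_at, showed less. It averaged 5.61 ± 0.12 in ERC4 and 5.89 ± 0.08 in HCC827 (SD, n = 3) and was called lower by a small margin (-0.29 ± 0.09 SE, limma adjusted p = 0.024). That call ended without ERC4 replicate 2 (-0.27, adjusted p = 0.08), ERC4 replicate 3 (-0.24, adjusted p = 0.093) or HCC827 replicate 3 (-0.24, adjusted p = 0.078), after median centring (-0.23, adjusted p = 0.06), after quantile normalization (-0.23, adjusted p = 0.058) and in the model of all 12 arrays (-0.29, adjusted p = 0.08). In Esh9-1 it measured 5.97, 6.26 and 6.65, against 6.57, 6.74 and 6.55 in HCC827NT. Replicate 3 of Esh9-1 lay within the range of HCC827NT while the other two lay below it. The difference of -0.33 was not called (interval -0.67 to 0.01, limma adjusted p = 0.099), and without Esh9-1 replicate 3 it was (-0.51, limma adjusted p = 0.0044).

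HBEGF, heparin-binding EGF-like growth factor, is a ligand of EGFR and ERBB4 and also the receptor of diphtheria toxin. In Esh9-1 its probe set 203821_at measured 10.32, 10.49 and 10.49, against 8.23, 8.67 and 8.42 in HCC827NT. The groups were apart by more than a log2 unit at their nearest arrays. The log2 fold change was 1.99 ± 0.11 (SE), or 3.98-fold (limma adjusted p = 6.7e-07), and it ranked 239 from the top among 22215 probe sets. A second probe set, 38037_at, measured 9.61, 9.56 and 9.59 in Esh9-1, against 7.11, 7.41 and 7.63 in HCC827NT. This was a 4.61-fold increase (2.20 ± 0.12, limma adjusted p = 5.2e-07), the largest among the 21 probe sets in that comparison.

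In ERC4 the probe set 203821_at measured 6.16, 6.12 and 6.17, against 5.47, 5.52 and 5.71 in HCC827. All ERC4 arrays were again above all reference arrays, but by less: 0.58 ± 0.09 (SE), or 1.496-fold (limma adjusted p = 0.00044). The probe set 38037_at was dim here, at 4.83 in ERC4 and 4.65 in HCC827, and its difference of 0.17 was not called (interval -0.00036 to 0.34, limma adjusted p = 0.09). It was called after median centring (0.23, adjusted p = 0.033) and after quantile normalization (0.28, adjusted p = 0.013). The third HBEGF probe set, 222076_at, was dim in all groups and called in neither comparison, at 4.52 in ERC4 and 4.44 in HCC827 (0.08, limma adjusted p = 0.39) and at 5.57 in Esh9-1 and 5.70 in HCC827NT (-0.13, limma adjusted p = 0.085). The probe sets of HBEGF thus differed in what they showed.

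EREG, epiregulin, had a single probe set, 205767_at, which was well above the median in all groups. In Esh9-1 it measured 11.44, 11.60 and 11.52, against 10.59, 10.36 and 10.43 in HCC827NT. The groups did not overlap, and the log2 fold change was 1.06 ± 0.08 (SE), or 2.08-fold (limma adjusted p = 4.8e-06). In ERC4 it measured 9.33, 9.50 and 9.54, against 9.11, 9.33 and 9.27 in HCC827. The lowest ERC4 array and the highest HCC827 array lay at the same rounded level. The difference of 0.22 was not called (interval 0.01 to 0.43, limma adjusted p = 0.076), and it was called in the model of all 12 arrays (limma adjusted p = 0.048), with trend and robust settings (limma adjusted p = 0.016) and after median centring (0.28, limma adjusted p = 0.037). No other alternative called it. After quantile normalization the difference was 0.0094 (limma adjusted p = 0.94), and without HCC827 replicate 1 it was 0.15 (limma adjusted p = 0.21).

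BTC, betacellulin, is a near neighbour of EREG. In the RefSeq table the genes EPGN, EREG, AREG and BTC follow one another on chromosome 4, and EPGN and AREG were not analysed here. The BTC probe set 207326_at was dim in all groups. It averaged 6.29 ± 0.03 in Esh9-1 and 6.61 ± 0.12 in HCC827NT (SD, n = 3) and was called lower (-0.32 ± 0.07 SE, limma adjusted p = 0.0057). In ERC4 it averaged 4.17 ± 0.20 against 4.30 ± 0.21 in HCC827, and was not called (-0.13, interval -0.42 to 0.16, limma adjusted p = 0.43). In Esh9-1 the neighbours EREG and BTC were thus called in opposite directions, BTC on dim signal.

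**Figure D2:**
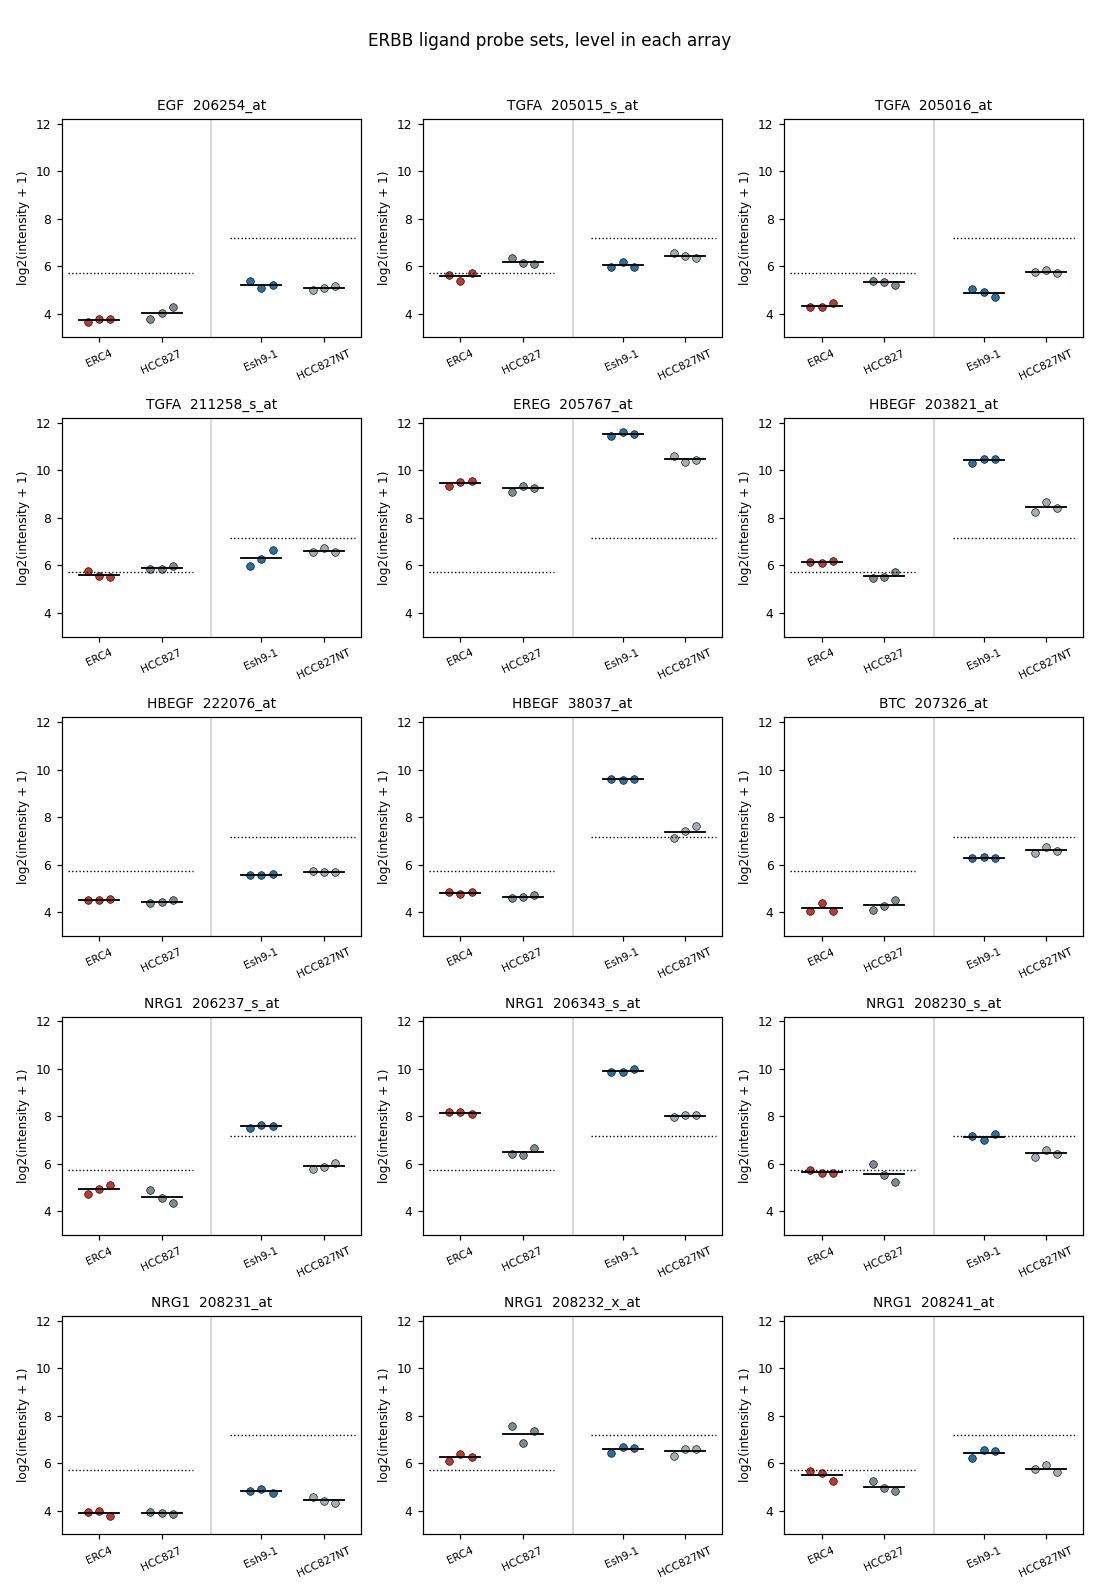
Log2(intensity + 1) of the 15 probe sets of the 6 ligand genes in each of the 12 arrays. Points are arrays, bars are means of 3, and the dotted lines are the medians of all probe sets in each set of 6 arrays, 5.72 on the left and 7.17 on the right. Levels are comparable only within each set of 6 arrays. EREG lies above the lines in all arrays, while EGF and BTC lie below them.

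NRG1, neuregulin 1, signals through ERBB3 and ERBB4 and has many transcript forms. It had 6 probe sets, designed from 5 different sequence records, and these did not move together. In ERC4 the brightest, 206343_s_at, measured 8.18, 8.19 and 8.10, against 6.40, 6.37 and 6.67 in HCC827. The groups were far apart, with a log2 fold change of 1.68 ± 0.10 (SE), or 3.20-fold (limma adjusted p = 1.4e-06), and a rank of 143 from the top among 22215 probe sets. The probe set 208232_x_at went the other way, with 6.10, 6.39 and 6.24 in ERC4, against 7.54, 6.85 and 7.34 in HCC827. It fell by 1.00 ± 0.16 (limma adjusted p = 0.00073), with no overlap between the groups. The suffix _x_at marks probes that may also match other transcripts, so the source of this signal is uncertain. Among the probe sets below, 202604_x_at of ADAM10, 205745_x_at of ADAM17, and 210984_x_at and 211607_x_at of EGFR carry the same suffix. The same caution holds for them and for any other probe set with it.

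Among the other NRG1 probe sets in ERC4, 208241_at was called higher on dim signal, at 5.50 in ERC4 and 5.01 in HCC827 (0.49 ± 0.13 SE, limma adjusted p = 0.013). This call ended without ERC4 replicate 1 (0.40, adjusted p = 0.058) or ERC4 replicate 2 (0.46, adjusted p = 0.052). The probe set 206237_s_at averaged 4.92 in ERC4 and 4.61 in HCC827 and was not called (0.31, interval -0.0049 to 0.63, limma adjusted p = 0.094). It was called in the model of all 12 arrays (limma adjusted p = 0.047), with array weights (0.37, limma adjusted p = 0.046), after quantile normalization (0.43, limma adjusted p = 0.036) and without HCC827 replicate 1 (0.46, limma adjusted p = 0.016). The dim probe sets 208230_s_at (0.06, limma adjusted p = 0.77) and 208231_at (0.02, limma adjusted p = 0.86) were not called.

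In Esh9-1, 5 of the 6 NRG1 probe sets rose. The brightest, 206343_s_at, measured 9.88, 9.89 and 9.99, against 7.96, 8.04 and 8.07 in HCC827NT. This was a 3.72-fold increase (1.90 ± 0.06 SE, limma adjusted p = 3.6e-08), the smallest adjusted p among the 21 probe sets. The probe set 206237_s_at measured 7.49, 7.63 and 7.61 in Esh9-1, against 5.79, 5.87 and 6.04 in HCC827NT, and rose 3.19-fold (1.68 ± 0.08, limma adjusted p = 2.8e-07). On dim signal, 208230_s_at rose by 0.70 ± 0.09, 208241_at by 0.67 ± 0.11 and 208231_at by 0.39 ± 0.08 (limma adjusted p = 0.00019, 0.00061 and 0.0032). The probe set 208232_x_at, lower in ERC4, was not called in Esh9-1 (0.08, interval -0.14 to 0.31, limma adjusted p = 0.52). The probe set 206343_s_at was thus higher in both ERC4 and Esh9-1, and among the other 5 NRG1 probe sets 208241_at alone was called in both comparisons.

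ADAM10, the sheddase of EGF and BTC in mouse cells and of Notch receptors and cadherins, was higher in ERC4 by all 3 of its probe sets. The brightest, 202603_at, measured 8.62, 8.66 and 8.58 in ERC4, against 7.34, 7.69 and 7.08 in HCC827. The ERC4 arrays lay close together and the HCC827 arrays were spread, without overlap. The log2 fold change was 1.25 ± 0.14 (SE), or 2.38-fold (limma adjusted p = 6.6e-05). The probe set 202604_x_at measured 6.59, 6.54 and 6.55 in ERC4, against 5.87, 5.92 and 5.86 in HCC827, and rose 1.598-fold (0.68 ± 0.07, limma adjusted p = 6e-05). The probe set 214895_s_at measured 5.85, 5.71 and 5.88 in ERC4, against 5.11, 4.88 and 5.07 in HCC827, and rose 1.73-fold (0.79 ± 0.09, limma adjusted p = 9e-05). These 3 calls held under each alternative in which the probe set was tested.

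In Esh9-1, ADAM10 rose in 2 of 3 probe sets. The brightest, 202603_at, measured 10.39, 10.37 and 10.43, against 9.77, 9.60 and 9.65 in HCC827NT. It rose 1.66-fold (0.73 ± 0.07 SE, limma adjusted p = 1.7e-05). The probe set 202604_x_at averaged 7.50 in Esh9-1 and 7.19 in HCC827NT, a smaller increase (0.31 ± 0.09, limma adjusted p = 0.017). Its call ended without HCC827NT replicate 2 (0.25, adjusted p = 0.065), HCC827NT replicate 3 (0.27, adjusted p = 0.065) or Esh9-1 replicate 2 (0.29, adjusted p = 0.053). The probe set 214895_s_at was just dim, at 7.02 in Esh9-1 and 7.09 in HCC827NT, and was not called (-0.07, interval -0.26 to 0.11, limma adjusted p = 0.48).

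ADAM17, the sheddase of TNF and of most EGFR ligands, fell in all 3 of its probe sets in Esh9-1. The brightest, 213532_at, measured 9.24, 9.22 and 9.16, against 9.71, 9.72 and 9.71 in HCC827NT. The level fell by 0.51 ± 0.06 (SE), a 1.42-fold decrease (limma adjusted p = 7.1e-05). The probe set 205745_x_at fell by 0.53 ± 0.07, with averages of 8.33 in Esh9-1 and 8.86 in HCC827NT (limma adjusted p = 0.00024). The probe set 205746_s_at fell by 0.46 ± 0.11, at 6.91 and 7.38 (limma adjusted p = 0.0081). In none of the 3 did the groups overlap.

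In ERC4 the probe sets of ADAM17 did not give one answer. The brightest, 213532_at, measured 7.47, 7.38 and 7.27, against 7.11, 7.35 and 7.28 in HCC827, overlapping ranges with a difference of 0.12 that was not called (interval -0.09 to 0.33, limma adjusted p = 0.3). The probe set 205745_x_at averaged 6.79 ± 0.21 in ERC4 and 7.09 ± 0.08 in HCC827 (SD, n = 3) and was called lower just inside the threshold (-0.30 ± 0.11 SE, limma adjusted p = 0.046). That call ended when any array other than ERC4 replicate 1 was left out, with log2 fold changes of -0.26, -0.31 and -0.34 without HCC827 replicate 1, 2 and 3, and of -0.19 and -0.32 without ERC4 replicate 2 and 3. It also ended after median centring (-0.24, adjusted p = 0.087) and with array weights (-0.28, adjusted p = 0.064). The dim probe set 205746_s_at was not called, at 4.95 in ERC4 and 5.01 in HCC827 (-0.06, limma adjusted p = 0.59).

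**Figure D3:**
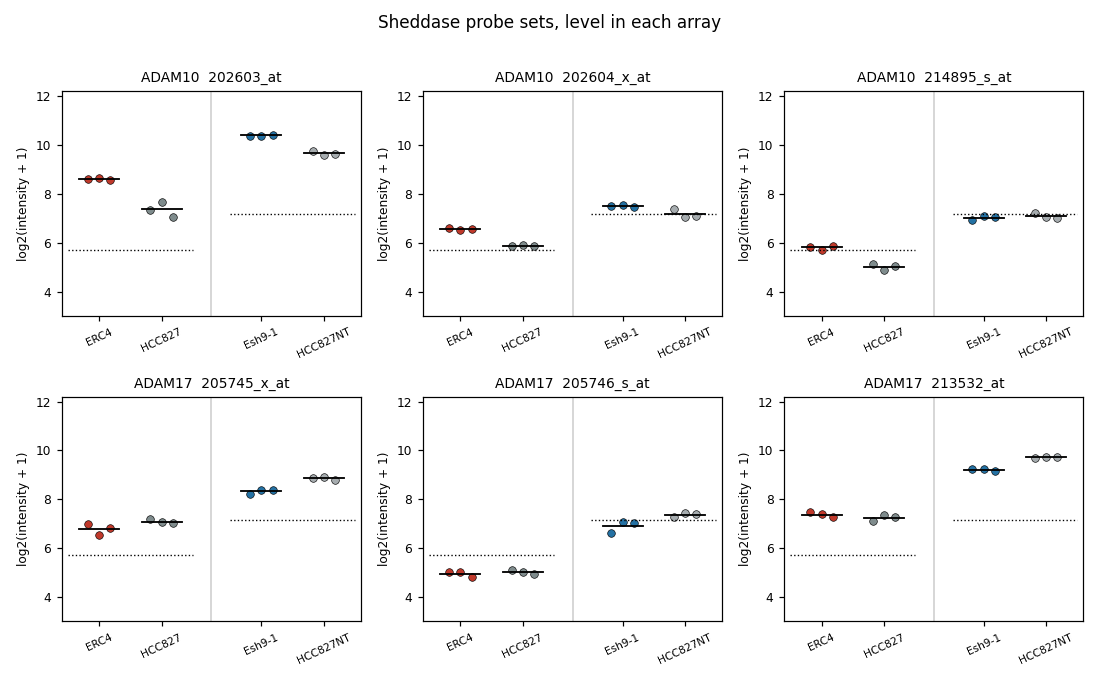
Log2(intensity + 1) of the 3 ADAM10 and 3 ADAM17 probe sets in each of the 12 arrays. Points are arrays, bars are means of 3, and dotted lines are the medians of all probe sets in each set of 6 arrays, 5.72 on the left and 7.17 on the right. ERC4 lies above HCC827 in the 3 ADAM10 panels, and Esh9-1 lies below HCC827NT in the 3 ADAM17 panels.

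The comparisons share no arrays. Of the probe sets called higher in ERC4, 5 of 6 were also called higher in Esh9-1, which is 5 of the 10 called higher there. They were 203821_at of HBEGF, 206343_s_at and 208241_at of NRG1, and 202603_at and 202604_x_at of ADAM10. Of those called lower in ERC4, 3 of 5 were also called lower in Esh9-1, 3 of the 6 called lower there: 205015_s_at and 205016_at of TGFA, and 205745_x_at of ADAM17. In no case was a member called in opposite directions. Over all probe sets, 47% of those called higher in ERC4 were also called higher in Esh9-1 (45.4% of the Esh9-1 calls), and 30.9% of those called lower were also called lower (29.7% of the Esh9-1 calls). Opposite calls in Esh9-1 were made for 25.9% of all probe sets called higher in ERC4 and for 11.6% of those called lower. With 6 and 5 calls among the members, these shares are set side by side and not tested. Several of the shared calls are of the same gene and are not independent. The calls of 208241_at and 205745_x_at in ERC4, and of 202604_x_at in Esh9-1, ended when some arrays were left out. The arrays of ERC4 and HCC827 had separate ranges in 13 of the 21 probe sets, 7 with ERC4 higher and 6 with ERC4 lower, against 58.2% of all probe sets (27.2% and 31.1%). Those of Esh9-1 and HCC827NT were separate in 17, 10 with Esh9-1 higher and 7 with it lower, against 58.8% of all probe sets (28% and 30.8%). An increase of at least 2-fold was called for 2 of the 21 in ERC4 and for 5 in Esh9-1, against 3.85% and 4.55% of all probe sets. In the main fit no member fell by as much in either comparison, against 1.52% and 4.25%. That absence in ERC4 depends on the 1 added before the logarithm. Without it, 205016_at of TGFA (-1.02, limma adjusted p = 2e-05) and 208232_x_at of NRG1 (-1.01, limma adjusted p = 0.00082) passed 2-fold there. The share of all probe sets under that setting was not taken.

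The receptors of these ligands were examined through 1 probe set per gene, the brightest over the 12 arrays. By this measure 50.9% of all genes were called in ERC4 (26% higher and 24.8% lower) and 52.3% in Esh9-1 (26.2% higher and 26.1% lower). Of the 8 ligand and sheddase genes themselves, 4 were called in ERC4 and 6 in Esh9-1. EGFR (201983_s_at) averaged 12.25 in Esh9-1 and 13.55 in HCC827NT and fell by 1.30 ± 0.07 (SE, limma adjusted p = 9.2e-07). In ERC4 it averaged 12.60 against 12.38 in HCC827 and was not called by this probe set (0.21, limma adjusted p = 0.051), while 3 of its 6 probe sets were called higher, 201984_s_at the most (0.66, limma adjusted p = 0.00016). In Esh9-1 4 of the 6 fell, with log2 fold changes of -2.16 for 201984_s_at, -2.70 for 210984_x_at and -2.72 for 211607_x_at beside that of the brightest, 1 was not called, and the probe set 211551_at was called higher (0.18, limma adjusted p = 0.045). ERBB3, the main NRG1 receptor beside ERBB4, fell by 1.99 ± 0.13 in ERC4 (limma adjusted p = 2.8e-06), and it fell by 3.88 ± 0.13 in Esh9-1 (limma adjusted p = 3e-08). These values are from 202454_s_at, and the other ERBB3 probe set, 215638_at, was called in neither comparison (-0.17 in ERC4 and -0.23 in Esh9-1, limma adjusted p = 0.22 and 0.13). ERBB2, the shared co-receptor, fell by 2.20 ± 0.09 in Esh9-1 (limma adjusted p = 8.6e-08) and was not called in ERC4 (-0.17, limma adjusted p = 0.1). ERBB4 and LRIG1, a negative regulator of ERBB receptors, were dim in all groups and called lower in Esh9-1 alone of the comparisons (-0.53 and -0.48, limma adjusted p = 0.00086 and 0.0039). The other ERBB4 probe set, 206794_at, was called in neither (-0.32 in ERC4 and 0.01 in Esh9-1, limma adjusted p = 0.071 and 0.91). The measured members of this list, 5 of 6, were thus lower in 5 cases in Esh9-1 and in 1 case in ERC4. NRG2, the only other ligand measured of 5 listed, was dim and was called higher in Esh9-1 (0.20, limma adjusted p = 0.031) but not in ERC4 (-0.02, limma adjusted p = 0.88). Its other probe set, 208062_s_at, was called in neither (-0.07 in ERC4 and -0.08 in Esh9-1, limma adjusted p = 0.5 and 0.41).

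Of 5 other ADAM metalloproteases, 1 was called higher and none lower in ERC4, and 2 were called higher and 1 lower in Esh9-1. ADAM9, which can release ligand precursors when overexpressed, rose by 0.51 ± 0.12 (SE) in ERC4 and by 0.55 ± 0.12 in Esh9-1 (limma adjusted p = 0.0068 and 0.0035). ADAM19, implicated in the processing of neuregulins in mouse cells, averaged 10.07 in Esh9-1 and 5.35 in HCC827NT by 209765_at, a 26.4-fold increase from dim signal (4.72 ± 0.10, limma adjusted p = 2.1e-09). Its other probe set, 221128_at, was not called there (-0.0043, limma adjusted p = 0.96). In ERC4 209765_at was dim and not called (0.11, limma adjusted p = 0.38), and 221128_at was called lower (-0.49, limma adjusted p = 0.047). ADAM15 fell by 0.32 ± 0.08 in Esh9-1 (limma adjusted p = 0.0078). ADAM8 was called in neither comparison. ADAM12 was not called by its brightest probe set, but in Esh9-1 its probe sets 202952_s_at (1.11, limma adjusted p = 1.7e-06) and 213790_at (0.61, limma adjusted p = 0.0021) were called higher.

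Of 16 genes for maturation, partners and inhibitors of the sheddases, 13 were measured. In ERC4 1 was called higher and 5 lower, with a median log2 fold change of -0.17, and in Esh9-1 3 were called higher and 5 lower, with a median of -0.13. Over all genes, 1 probe set each, the medians were -0.04 and -0.02. The tetraspanins TSPAN5, TSPAN14 and TSPAN15 escort ADAM10 to the cell surface. TSPAN15 fell by 0.92 ± 0.08 (SE) in ERC4 and by 0.85 ± 0.07 in Esh9-1 (limma adjusted p = 2.3e-05 and 1.3e-05). TSPAN14 fell by 0.36 ± 0.09 in ERC4 (limma adjusted p = 0.01), and TSPAN5 rose by 0.95 ± 0.08 in Esh9-1 (limma adjusted p = 1.5e-05). The 3 measured ADAM10 escorts thus did not move as one. TIMP1, an inhibitor of ADAM10 and of matrix metalloproteinases, rose by 0.76 ± 0.07 in ERC4 and by 0.66 ± 0.06 in Esh9-1 (limma adjusted p = 3.3e-05 and 2.3e-05). CD9, a tetraspanin that binds membrane-bound HBEGF, averaged 10.33 in Esh9-1 and 12.35 in HCC827NT and fell by 2.03 ± 0.08 (limma adjusted p = 1.2e-07). In ERC4 CD9 fell by 0.32 ± 0.08 (limma adjusted p = 0.0083). FURIN, a protease that removes the prodomain of ADAMs, fell by 0.43 ± 0.09 in ERC4 (limma adjusted p = 0.0036). For RECK, a gene picked out after its values were seen, the probe sets were called in opposite directions in Esh9-1, at -0.35 (216153_x_at, the brightest) and 1.62 (205407_at). Also picked out after their values were seen, RHBDF1 and RHBDF2, the iRhom genes on which ADAM17 maturation depends, were called in neither comparison, with log2 fold changes of -0.10 and -0.07 in ERC4 and 0.10 and 0.24 in Esh9-1 (limma adjusted p = 0.46, 0.64, 0.24 and 0.09).

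**Figure D4:**
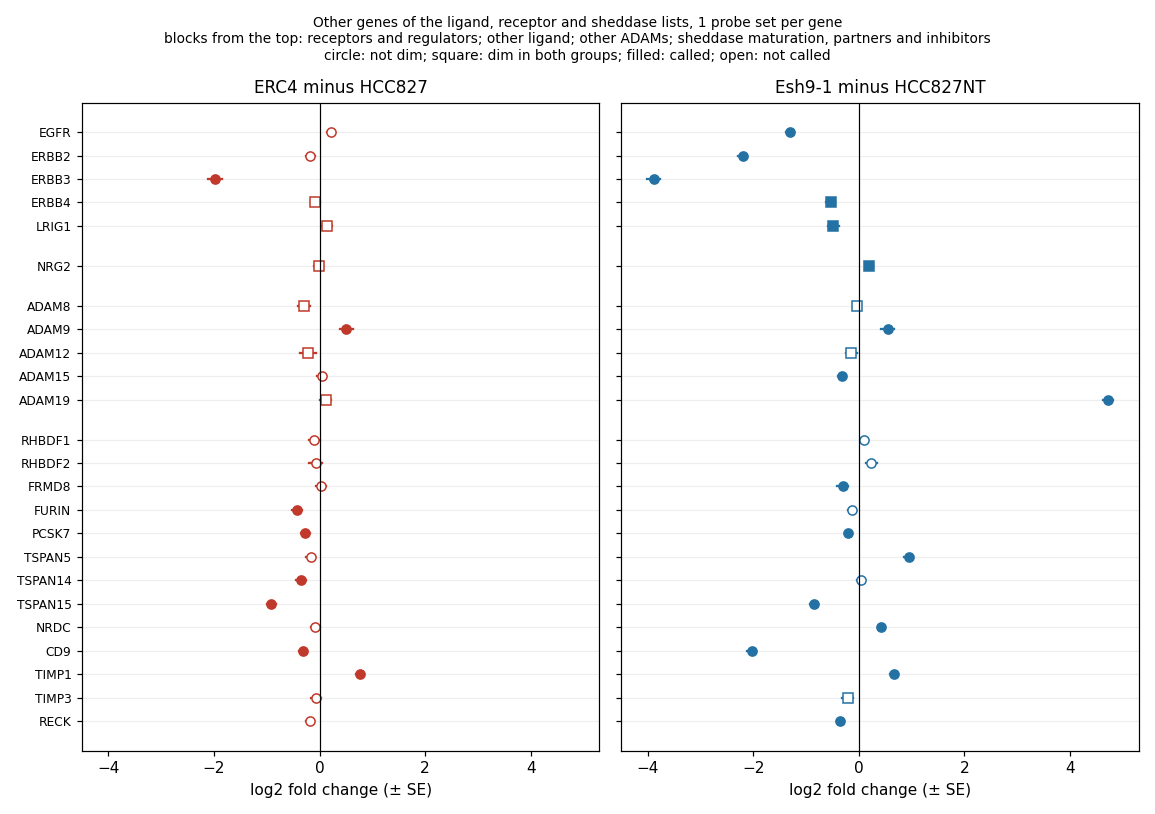
Log2 fold change ± SE of receptor, ligand, ADAM and sheddase partner genes, 1 probe set per gene, in ERC4 minus HCC827 (left) and Esh9-1 minus HCC827NT (right). Filled symbols were called and squares are dim in both groups. In the right panel ADAM19 lies at 4.72, CD9 at -2.03 and ERBB3 at -3.88.

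The genes with the most similar course over the 12 arrays were sought for 6 members, after the mean of each set of 6 arrays was subtracted, among 7997 other genes above the median in at least 1 comparison. Such correlations describe arrays that share groups, and many genes reach high values. For HBEGF the most similar were VEGFC (Pearson's r = 0.9926), PODXL (0.9919) and NUDT6 (0.9919), and 266 genes reached 0.95. For NRG1 they were PPIF (0.996), SH3BP4 (0.996) and CCN1 (0.9957), and 400 genes reached 0.95. For EREG they were RDX (0.988), EIF3L (0.9873) and ITGAV (0.9866), with 187 genes at 0.95. For ADAM10 they were TIPARP (0.9923), YTHDF3 (0.9917) and NUP50 (0.9916), with 287 genes at 0.95. ADAM17 had fewer such genes, 38, led by SLC61A1 (0.9814), SGPL1 (0.9763) and SUSD6 (0.9725). TGFA had 0, and ODF1 (0.9467), WAS (0.9176) and TMPRSS2 (0.913) came nearest to its brightest probe set. EGF, which was called in neither comparison, and BTC, which was dim throughout, were not given similar genes.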

How the data were processed

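RNA of 12 samples of HCC827 and derived cells was hybridised to expression arrays, 3 per group. The authors deposited intensities of 22277 probe sets on a linear scale. RMA is the tool that the submitters' processing notes name. Its version is not given in the sources used here, nor is it said which arrays it took together. The 62 control probe sets were left out, and log2(value + 1) was taken, which understates changes of dim genes. Gene names come from the platform annotation, where 19070 probe sets have 1 symbol, 1043 several and 2164 none. A single symbol was replaced by the current RefSeq symbol of its Entrez gene ID where RefSeq holds that ID. No detection calls were used. Groups came from the sample titles. Each comparison was fitted on its own 6 arrays with limma 3.58.1 in R 4.3.3 (lmFit, eBayes, 4 residual degrees of freedom), two-sided, with Benjamini-Hochberg adjustment over 22215 probe sets and a threshold of 0.05. Named genes are all members, listed genes of the receptor, ligand and ADAM lists, and up to 4 called genes of the other lists by size of change. RECK, RHBDF1 and RHBDF2 were added after their values were seen. The members and lists were chosen with earlier results of these data known. The fit was run on simulated data with independent noise and 200 changed probe sets of 22215, far fewer than were called in the data. Of the calls, 6.67% were false with the spread of ERC4 and HCC827 and 5.45% with that of Esh9-1 and HCC827NT. Changes of 0.5 were recovered in 77.5% and 88.8% of cases, and changes of 1 in 100% of both. The share of false calls in the data themselves is not known from this. Alternatives were the model of all 12 arrays, a replicate block, quantile normalization, median centring, array weights, eBayes with trend and robust options, other pseudocounts, a filter on dim probe sets, 1 probe set per gene, each array left out in turn, and a stricter threshold of 0.01. The labels do not say whether replicates came from separate cultures, and the spread behind the p-values may therefore be technical. The number of arrays limits the precision, and an exact permutation test of 3 arrays against 3 cannot give a two-sided p under 0.1. Figures were drawn with matplotlib 3.10.9.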

Additional observations from a re-analysis of the deposited data

How the results depend on the processing

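No probe set of the ligand and sheddase genes turned its direction past the threshold under any alternative run. In ERC4 minus HCC827, 8 of the 11 called probe sets kept their call in all alternatives in which they were tested, and in Esh9-1 minus HCC827NT 15 of 16 did. The exceptions were 211258_s_at of TGFA, 208241_at of NRG1 and 205745_x_at of ADAM17 in ERC4, and 202604_x_at of ADAM10 in Esh9-1. Of those not called, 4 of 10 in ERC4 and 1 of 5 in Esh9-1 were called under some alternative. With 1 probe set per gene, 6217 probe sets were called in ERC4 and 6410 in Esh9-1, against 10774 and 11184, and 4 and 6 of 8 member probe sets, since fewer were tested. The filter on dim probe sets left 9 member calls in ERC4, of 11 tested, and 10 in Esh9-1, of 10 tested. In the main fit, 61.7% and 69.6% of all probe sets not dim were called. Nothing is read from these counts, since a probe set can pass the filter through the group in which it is high. Leaving out an array gave 8617 to 10325 calls in ERC4 and 10011 to 10722 in Esh9-1, with 8 to 12 and 15 to 17 among the members. Higher calls made up 48.7% in ERC4 and 58.9% after median centring, where 8 members were higher and 3 lower. Replicate numbers did not pair the arrays: deviations of same-numbered arrays correlated at 0.01 to 0.07 in ERC4 and HCC827 and at -0.14 to -0.03 in Esh9-1 and HCC827NT, and not every array correlated best with its own number. With the replicate block 10639 and 10454 probe sets were called, and 12 and 16 of the members, EGF in ERC4 being the one gained (adjusted p = 0.036). Low signal limits EGF, BTC and the other dim probe sets, and how near to background they lay was not measured.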

Other observations

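Other proteins cut by ADAM10 or ADAM17 were looked at beside the ligands. Of 20 listed substrate genes 17 were measured, and 5 were called higher and 5 lower in ERC4, and 8 higher and 6 lower in Esh9-1, with median log2 fold changes of -0.08 and 0.04. Over all genes, 1 probe set each, 50.9% were called in ERC4 and 52.3% in Esh9-1, with medians of -0.04 and -0.02. CD44, a hyaluronan receptor, rose by 0.80 ± 0.08 (SE) in ERC4 and by 1.98 ± 0.08 in Esh9-1 (limma adjusted p = 5.2e-05 and 9.3e-08). CDH1, which encodes E-cadherin, fell by 2.75 ± 0.09 in ERC4 and fell by 6.28 ± 0.10 in Esh9-1 (limma adjusted p = 6.9e-08 and 9.7e-10). MUC1, a membrane mucin gene, fell by 2.78 ± 0.09 in ERC4 and fell by 3.28 ± 0.08 in Esh9-1 (limma adjusted p = 4.9e-08 and 4.6e-09). IL6R, the interleukin 6 receptor gene, was called in opposite directions, at 1.58 ± 0.10 in ERC4 and -1.18 ± 0.12 in Esh9-1 (limma adjusted p = 2.5e-06 and 4.7e-05), and both of its probe sets showed this. JAG1, a Notch ligand gene, rose by 1.36 ± 0.12 in Esh9-1 by its brightest probe set (limma adjusted p = 1.2e-05), as it did by 2 of the other 3. In ERC4 its probe sets disagreed, with 209099_x_at higher (0.57, limma adjusted p = 0.014) and 209097_s_at lower (-0.83, limma adjusted p = 6e-05).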
